A study of Caenorhabditis elegans with 161 samples.

Results

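The NK-class homeodomain genes of Caenorhabditis elegans examined here are ceh-22 (F29F11.5), ceh-24 (F55B12.1), ceh-27 (F46F3.1), ceh-28 (K03A11.3), cog-1 (R03C1.3), mls-2 (C39E6.4) and tab-1 (F31E8.3). These 7 of the 20687 genes in the count table were found by matching sequence names to RefSeq locus tags, and each has a row among the strains and among the repeats. Counts came from CEL-Seq, which tags and amplifies the 3′ ends of polyadenylated transcripts, in whole embryos pooled by 10. The strains set holds 140 libraries, 1 from each of 20 strains (19 numbered mutation-accumulation lines and N2, the reference laboratory strain) at each of 7 stages, namely 0, 60, 180, 270, 440, 650 and 830 min past the 4-cell embryo. Mutation-accumulation lines are passed through tight bottlenecks so that new mutations are kept with little selection, and all lines are C. elegans grown and collected alike with no treatment. A further 21 libraries repeated strain 522, 3 at each of 7 time points called A to G. The time field of 18 of these 21 contradicts their title, so A to G stand beside 0 to 830 min by order alone.

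Homeodomain proteins bind DNA and set the fate of cells in the embryo, and the NK class is an ancient branch of them that includes the heart factor tinman of the fly and its vertebrate Nkx2 relatives. In C. elegans, which has no heart, NK-2 type genes act in the pharynx, the pumping foregut, and in other muscles and neurons. CEH-22 is the NK-2 relative that activates pharyngeal muscle myosin, CEH-28 acts in the pharyngeal motor neuron M4, and CEH-24 is an NK-2 protein of certain muscles and motor neurons. COG-1 is the Nkx6 relative that helps to set left and right taste neurons apart, MLS-2 is the HMX relative of the postembryonic mesoderm, of AWC olfactory neurons and of sheath glia, and TAB-1 is a relative of the fly Bsh protein. CEH-27 is another NK-2 relative.

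Library totals ran from 5653 to 525902 gene counts in the strains (median 57199) and from 58543 to 623958 in the repeats (median 219346). Levels below are CPM, the share of a library's gene counts scaled to 1e6, and in the median strain library 1 count is worth 17.5 CPM. Summed over the 140 strain libraries the counts behind the values were 1249 for ceh-27, 427 for cog-1, 257 for mls-2, 256 for ceh-22, 199 for tab-1, 111 for ceh-24 and 6 for ceh-28. All 140 strain libraries and all 21 repeats correlated best with their own stage over 4131 genes (lowest r 0.680 and 0.906). Every strain library of a stage came from a different strain, so the spread there covers separate animals as well as technical error. The repeats are labelled as biological, but separate cultures are not stated for their pools. Their p-values thus reflect a spread among samples that may be technical. In whole embryos, fewer cells of a type and less RNA per cell cannot be told apart. Carry-over from the cut mothers was followed by yolk genes and by 10 sperm msp genes, whose summed median was 0 at every stage of the strains and at most 6.30 CPM in the repeats, at B. The summed median of 6 vit yolk genes was 557 CPM at 0 min and 850 CPM at 60 min in the strains, and was then lower at each later stage, down to 23.7 CPM at 830 min. In the repeats it was higher, at 4120 CPM at A and 4270 CPM at B, and after 1131 CPM at E it stood at 1838 CPM at F and 24.3 CPM at G. The part of yolk carry-over in the changes below was not tested.

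The genes were highest at different stages, apart from ceh-28, which had too few counts to be placed. ceh-27, mls-2 and tab-1 were highest at 180 or 270 min in most strains, ceh-22 at 270 or 440 min, cog-1 at 440 min, and ceh-24 at 440 or 650 min. By strain, the highest level of ceh-27 lay at 180 min in 14 strains and at 270 min in 6, that of tab-1 at 180 min in 8 and at 270 min in 12, and that of mls-2 at 180 min in 10, at 270 min in 8 and at 440 min in 2. For ceh-22 it lay at 270 min in 9 strains, at 440 min in 9 and at 650 min in 1, and strain 529 gave no count at any stage. For cog-1 it lay at 440 min in 17 strains, at 270 min in 2 and at 180 min in 1. For ceh-24 it lay at 440 min in 11 strains and at 650 min in 8, with no count in strain 517. ceh-28 gave no count in 15 strains.

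**Figure D1:**
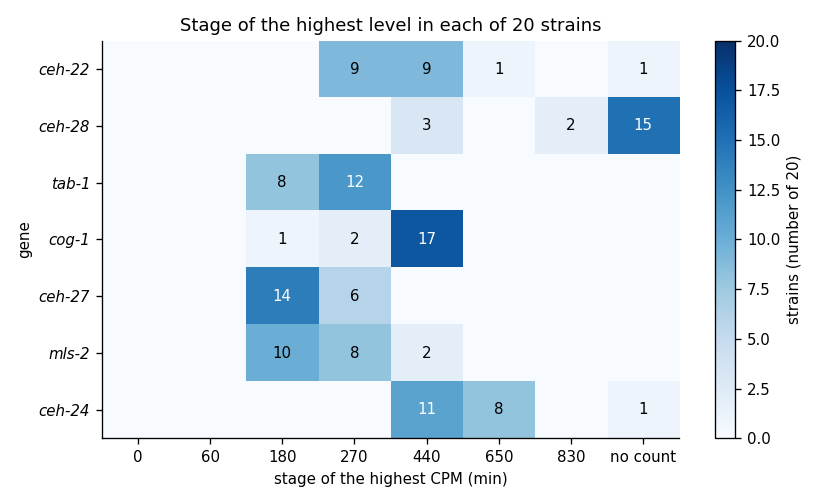
Number of strains, of 20, whose highest CPM lay at each stage (columns, in min; the last column counts strains with no count at any stage) for each gene (rows). The counts step from 180 min for ceh-27 (14 strains) to 440 min for cog-1 (17 strains), while ceh-22 is split between 270 and 440 min with 9 strains at each.

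**Figure D2:**
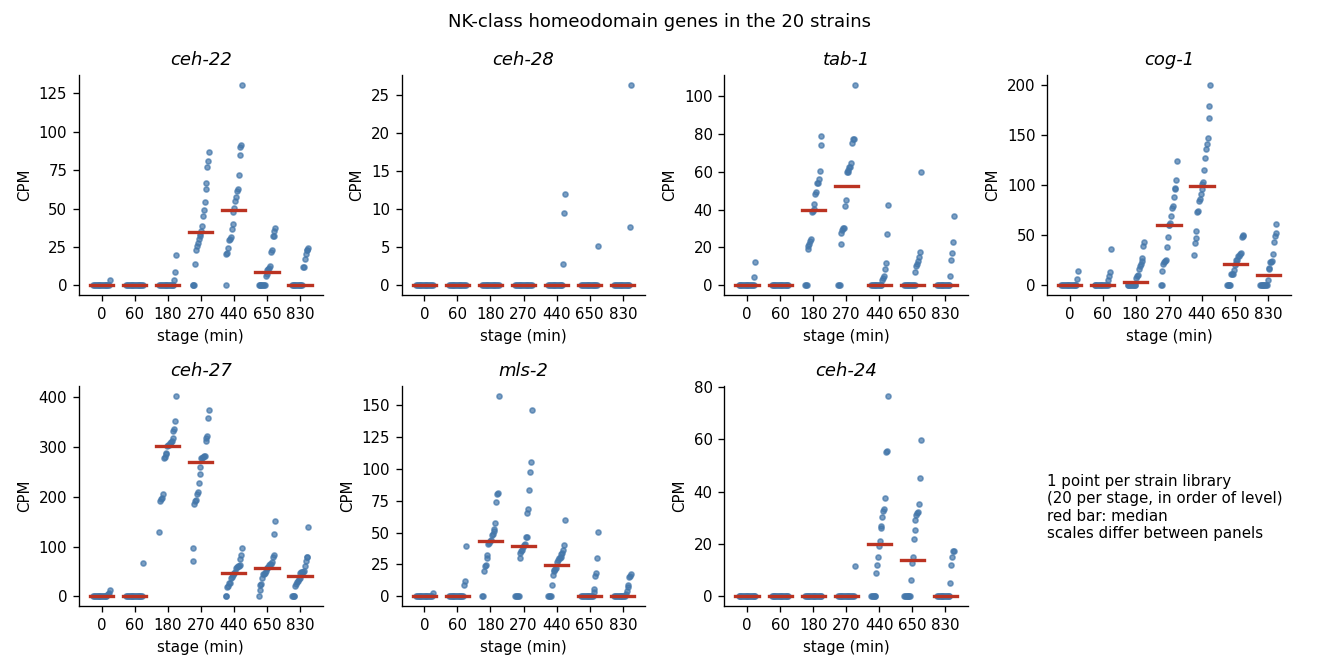
CPM of each gene by stage (min after the 4-cell stage) in the strains, with 1 point per library, 20 per stage, and a red bar at the median; each panel has its own vertical scale. ceh-27 steps from a median of 0 CPM at 60 min to 303 CPM at 180 min, and ceh-24 has a median of 0 CPM until 270 min and 20.1 CPM at 440 min.

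ceh-27 rose between 60 and 180 min and fell between 270 and 440 min, and no later step was called. At 60 min, 19 of 20 strain libraries held no count and strain 570 stood alone at 66.3 CPM, with 5 counts. At 180 min the lowest strain had 130 CPM, the median strain 303 CPM and the highest 404 CPM. Every strain was higher at 180 min, and the groups did not overlap. The log2 fold change was 5.72 ± 0.35 (SE) by edgeR's quasi-likelihood test with Benjamini-Hochberg adjustment over all genes tested (adjusted p = 9.2e-26). At 270 min the strains ran from 70.8 CPM through a median of 269 CPM to 375 CPM, overlapping those at 180 min. The change from 180 min was not called (log2 fold change -0.10 ± 0.15, adjusted p = 0.679). At 440 min levels ran from 0 through 46.3 to 96.5 CPM. All 20 strains were lower than at 270 min, and the groups overlapped through strain 598 alone, the lowest at 270 min. This fall had a log2 fold change of -1.89 ± 0.21 (edgeR adjusted p = 4.7e-12). Medians of 56.7 CPM at 650 min and 41.2 CPM at 830 min followed, and neither step was called (log2 fold changes 0.59 ± 0.27, adjusted p = 0.0634, and -0.47 ± 0.30, adjusted p = 0.265). Of the 7 stage means added together, 41.4% lay at 180 min and 36.5% at 270 min.

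In the repeats of strain 522 ceh-27 rose and fell at the matching steps. The 3 libraries of time point B held 0 counts of 831984, which allows up to 3.61 CPM. Those of C stood at 282, 292 and 180 CPM, those of D at 311, 170 and 284 CPM, and those of E at 50.1, 56.5 and 48.8 CPM. B lay below each library of C, C and D overlapped, and each library of D lay above each library of E. C was 71.5-fold higher than B with B set to a floor of 3 counts over the group (edgeR adjusted p = 8.2e-18). The counting interval of C over B had a lower limit of 56.8. The fall from D to E had a log2 fold change of -1.88 ± 0.23 (edgeR adjusted p = 1.0e-07). At F the libraries held 59.3, 48.5 and 57.8 CPM and at G 14.8, 59.8 and 17.2 CPM. Library 2 of G stood apart from the other 2, and the step from F to G was not called (-0.57 ± 0.35, adjusted p = 0.271) but was called without that library (-1.68, adjusted p = 0.0294). Strain 522 in the strains set held 332 CPM at 180 min and 282 CPM at 270 min, on 17 and 11 counts.

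tab-1 rose and fell in the same intervals as ceh-27. None of the 20 libraries at 60 min held a count (0 of 1577075 counts, which allows up to 1.90 CPM). At 180 min the strains ran from 0 through a median of 39.7 to 78.9 CPM, and at 270 min from 0 through 52.4 to 106 CPM. At each of these stages 3 strains held no count, so the groups met at 0 only. The rise from 60 to 180 min was 22.5-fold against the same floor (edgeR adjusted p = 4.2e-11), with counts in 17 of 20 strains. The counting interval of this rise had a lower limit of 17.8. Between 180 and 270 min the change was not called (log2 fold change 0.32 ± 0.29, adjusted p = 0.429). At 440 min the median was 0 and the highest strain, 508, held 42.5 CPM on 1 count. The fall from 270 min had a log2 fold change of -2.84 ± 0.42 (edgeR adjusted p = 1.7e-08) and was seen in 17 of 20 strains. Later steps were not called. In the repeats the libraries of C held 8.07, 48.6 and 47.9 CPM, those of D 52.7, 34.0 and 48.1 CPM and those of E 0, 4.19 and 0 CPM. D and E did not overlap, and the fall between them had a log2 fold change of -3.98 ± 0.68 (edgeR adjusted p = 1.4e-05).

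mls-2 rose in the same interval as ceh-27 and tab-1, and in the strains its fall was called a step later. The strains at 60 min held 0 in 17 libraries and at most 39.8 CPM, in strain 570. At 180 min they ran from 0 through a median of 43.7 to 158 CPM. Only strains 529 and 597 held no count there, and 18 of 20 strains were higher than at 60 min (log2 fold change 3.04 ± 0.44, edgeR adjusted p = 6.2e-09). Levels at 270 min ran from 0 through 39.5 to 146 CPM and at 440 min from 0 through 24.6 to 59.6 CPM. All 3 groups overlapped, and neither step between them was called (0.13 ± 0.29, adjusted p = 0.785, and -0.60 ± 0.32, adjusted p = 0.103). In CPM, 14 of 20 strains were already lower at 440 than at 270 min and 4 were higher. The summed counts, 92 and 51, give a ratio of 0.478 with a counting interval of 0.333 to 0.680. With RLE scaling this step passed the adjusted threshold but not 2-fold (-0.80, edgeR adjusted p = 0.0259). At 650 min the median was 0 CPM and the highest strain, 597, held 50.2 CPM. The fall from 440 min had a log2 fold change of -1.60 ± 0.45 (edgeR adjusted p = 0.0017) and was seen in 16 of 20 strains. In the repeats mls-2 held 40.3, 48.6 and 71.9 CPM at C, 47.3, 13.6 and 68.9 CPM at D and 9.12, 18.8 and 15.2 CPM at E. Library 2 of D lay below 2 of the libraries of E, so these groups overlapped. The fall from D to E was called (-1.24 ± 0.44, edgeR adjusted p = 0.0183). It was lost with DESeq2 (adjusted p = 0.169) and without library 3 of D (0.159), library 1 of E (0.0564) or library 2 of E (0.0520).

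ceh-22, the pharyngeal muscle regulator, came on a stage later. Only 3 of 20 libraries at 180 min held a count, 1 each, and the highest was strain 522 at 19.6 CPM. At 270 min the strains ran from 0 through a median of 34.5 to 86.8 CPM, with 17 of 20 above their value at 180 min and the groups overlapping at the low end. The summed counts, 3 and 83, give a ratio of 28.3 with a 95% counting interval of 9.36 to 140 (edgeR log2 fold change 3.93 ± 0.44, adjusted p = 1.2e-11). Levels at 440 min ran from 0 through 48.9 to 130 CPM, strain 529 being the one at 0. The difference from 270 min passed the adjusted threshold but not 2-fold (0.68 ± 0.27, adjusted p = 0.0261), and 10 of 20 strains were higher at 440 min in CPM (13 in TMM-scaled CPM). At 650 min they ran from 0 through 8.53 to 37.6 CPM. The fall from 440 min had a log2 fold change of -1.66 ± 0.35 (edgeR adjusted p = 3.7e-05) and was seen in 18 of 20 strains. At 830 min, 13 of 20 libraries held no count, and the step from 650 min was not called (-0.37 ± 0.47, adjusted p = 0.868).

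In the repeats ceh-22 held 0 counts in the 9 libraries of A, B and C, 0 of 310259 counts at C alone allowing up to 9.67 CPM. At D the libraries held 38.2, 6.80 and 49.7 CPM and at E 59.3, 44.0 and 30.5 CPM. Library 2 of D was low, with 1 count, and D and E overlapped. D was 4.15-fold higher than C against the floor of 3 counts (edgeR adjusted p = 0.0063). The counting interval of D over C had a lower limit of 3.26. D to E was not called (0.63 ± 0.37, edgeR adjusted p = 0.148). F held 12.9, 0 and 21.03 CPM, below each library of E, a fall of log2 fold change -1.30 ± 0.45 (edgeR adjusted p = 0.0122). That call was lost with DESeq2 (adjusted p = 0.0666) and without library 1 of E (0.0539) or library 1 of F (0.0633). G held 9.89, 28.02 and 25.8 CPM, overlapping F.

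ceh-28, the gene of the M4 motor neuron, was at the edge of detection and lay below the count minimum of every interval's test. The strains gave 3 counts at 440 min, 1 at 650 min and 2 at 830 min, each in a different library, and 0 of 1712057 counts at 270 min, which allows up to 1.75 CPM. In the repeats E held 1, 4 and 2 counts (4.56, 8.38 and 6.10 CPM), F held 1 count in 1 library, and all others held 0. Every library of E thus lay above every other repeat. Against the floor of 3 counts, E was 3.01-fold higher than D, and the counting interval of E over D had a lower limit of 1.86. Without the minimum, edgeR's test over all stages gave an adjusted p of 0.0532 in the strains, and that over all time points, on 8 counts in all, 0.0065 in the repeats.

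ceh-24, the NK-2 gene of other muscles and motor neurons, was absent from the counts until 270 min. The 60 strain libraries at 0, 60 and 180 min held 0 counts, and at 270 min strain 555 alone held 4 counts (11.4 CPM). At 440 min the strains ran from 0 through a median of 20.1 to 76.6 CPM, with 14 of 20 above 0. The groups overlapped at 0, and the rise had a log2 fold change of 3.27 ± 0.48 (edgeR adjusted p = 1.7e-08). At 650 min levels ran from 0 through 13.7 to 59.6 CPM and did not differ by the test (-0.24 ± 0.41, adjusted p = 0.651). At 830 min, 15 of 20 libraries held no count and the highest held 17.3 CPM. This last step was not called (-1.12 ± 0.48, edgeR adjusted p = 0.0828), but it was called with strain as a block (-1.47, adjusted p = 0.0317) and with RLE scaling (-1.31, adjusted p = 0.0298). In the repeats D held 1 count in 1 library and E held 22.8, 44.0 and 24.4 CPM. E lay above D in every library, and the summed counts of 1 and 34 give a ratio of 43.8 with a counting interval of 7.35 to 1781 (edgeR adjusted p = 8.8e-07). F held 5.16, 16.2 and 21.03 CPM and G 0, 13.1 and 34.4 CPM, and neither step was called (-0.97 ± 0.48, adjusted p = 0.0835, and -0.25 ± 0.67, adjusted p = 0.846).

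cog-1 climbed over 3 successive steps to 440 min. At 180 min the strains ran from 0 through a median of 3.50 to 43.5 CPM, on 20 counts against 4 at 60 min. That first rise had a log2 fold change of 1.49 ± 0.53 (edgeR adjusted p = 0.0112) with 10 of 20 strains higher, and was lost with DESeq2 (adjusted p = 0.0757). At 270 min they ran from 0 through 60.0 to 124 CPM, and at 440 min from 30.7 through 99.0 to 200 CPM. Each stage overlapped the one before, although 440 min was the one stage with a count in every strain. The rise from 180 to 270 min had a log2 fold change of 2.23 ± 0.38 (edgeR adjusted p = 1.2e-06, 17 of 20 strains) and that from 270 to 440 min 1.32 ± 0.25 (adjusted p = 5.1e-06, 18 of 20 strains). At 650 min the strains ran from 0 through 21.3 to 50.5 CPM. The fall had a log2 fold change of -1.76 ± 0.30 (edgeR adjusted p = 5.4e-07), in all 20 strains, and 830 min did not differ from 650 min by the test (-0.09 ± 0.42, adjusted p = 0.926).

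In the repeats cog-1 rose and fell in separate steps from C to F. C held 0, 19.5 and 11.98 CPM, D 67.3, 68.0 and 70.5 CPM, E 169, 140 and 149 CPM, F 46.4, 16.2 and 40.3 CPM and G 39.6, 37.4 and 34.4 CPM. From C to F no time point overlapped the next, while F and G overlapped. The rise from C to D rests on 3 and 91 counts, a ratio of 7.12 with a counting interval of 2.36 to 35.2 (edgeR adjusted p = 0.0036). D to E rose by a log2 fold change of 1.62 ± 0.22 (edgeR adjusted p = 5.8e-07) and E to F fell by 1.78 ± 0.27 on the log2 scale (adjusted p = 1.9e-07). In the WBcel235 annotation cog-1 overlaps the protein-coding gene R03C1.1 on the other strand. How the counting used strand is not given in the sources used here, so how reads in the overlap were assigned is not known. R03C1.1 held 655 CPM over the pooled libraries of 650 min and 670 CPM over those of F, and at most 9.08 CPM at every other stage of the strains. Its high stage is thus the one at which cog-1 had fallen to 22.8 CPM pooled. ceh-27 overlaps a non-coding RNA on its own strand, ceh-22, ceh-28 and mls-2 overlap non-coding RNAs on the other strand, and ceh-24 and tab-1 overlap no annotated gene.

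**Figure D3:**
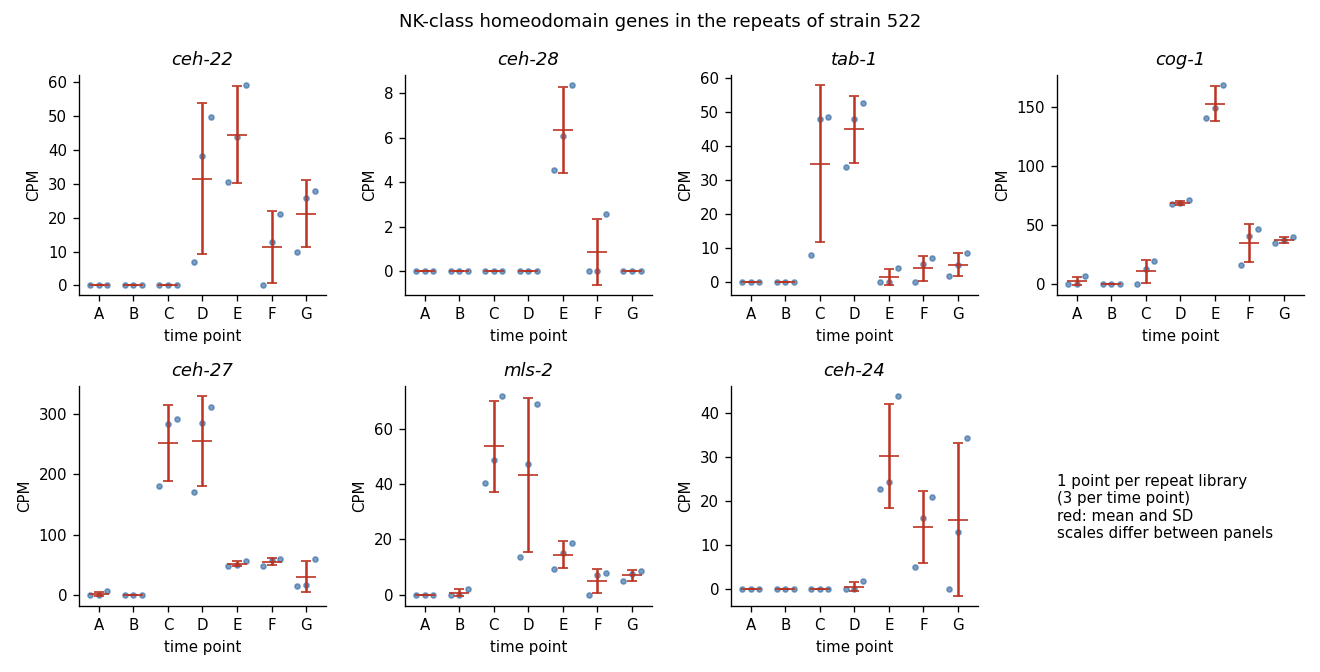
CPM of each gene in the repeats of strain 522 by time point A to G, with 1 point per library, 3 per time point, and the mean and SD in red; each panel has its own vertical scale. cog-1 steps from 67.3 to 70.5 CPM at D up to 140 to 169 CPM at E, and ceh-28 is above 0 in all 3 libraries at E alone.

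The calls of the 7 genes lay in 4 of the 6 intervals. Between 0 and 60 min none of the 7 reached a summed count of 20, and none was tested. Between 60 and 180 min the 4 genes tested all rose, while 22.6% of the 7904 genes tested rose and 23.2% fell. The background depends on the scaling there: with RLE scaling 2355 genes rose and 1425 fell between 60 and 180 min, against 1789 and 1834 with TMM, and 1043 rose and 1908 fell between 0 and 60 min, against 1545 and 1433. Leaving out N2 moved the split between 60 and 180 min in the same way with TMM (2270 rose and 1420 fell), as did leaving out the shallow libraries (2314 and 1441). The median over all genes moved by 0.28 and 0.27 with these. With RLE scaling the median moved by 0.29 between 60 and 180 min and by -0.29 between 0 and 60 min on the log2 scale, by -0.18 between 270 and 440 min and by -0.15 between 650 and 830 min. Log2 fold changes of size 1 to 2 are to be read against these shifts. Between 180 and 270 min ceh-22 and cog-1 rose among 5 tested, with 13.1% of 8183 genes rising and 7.03% falling. Between 270 and 440 min ceh-24 and cog-1 rose and ceh-27 and tab-1 fell among 6 tested, with 29.4% of 9299 genes rising and 15.2% falling. Between 440 and 650 min ceh-22, cog-1 and mls-2 fell among 6 tested, with 26.3% of 10424 genes rising and 14.6% falling. Between 650 and 830 min none of 6 was called, with 10.7% of 10528 genes rising and 13.8% falling. A gene enters these counts only through the stage where it is high, so they describe the genes that passed the count minimum and no others.

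In the repeats mls-2 was called down from D to E, a step earlier than in the strains, and whether the sets differ there was not tested. From B to C ceh-27, the 1 gene tested, rose, with 19.4% of 6086 genes rising and 23.5% falling. From C to D ceh-22 and cog-1 rose among 5 tested, with 11.1% of 6839 genes rising and 6.02% falling. From D to E ceh-24 and cog-1 rose and ceh-27, mls-2 and tab-1 fell among 6 tested, with 28.1% of 8391 genes rising and 19.2% falling. From E to F ceh-22 and cog-1 fell among 5 tested, with 25.1% of 8852 genes rising and 19.4% falling. From F to G none of 4 was called, with 8.52% of 8606 genes rising and 10.9% falling. Over the whole course 6 of the 7 genes differed among stages in the strains (largest adjusted p 7.5e-22) and among time points in the repeats (largest 1.4e-14). This is near the background, since 97.1% of 12986 genes differed among stages and 94.2% of 11797 among time points.

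**Figure D4:**
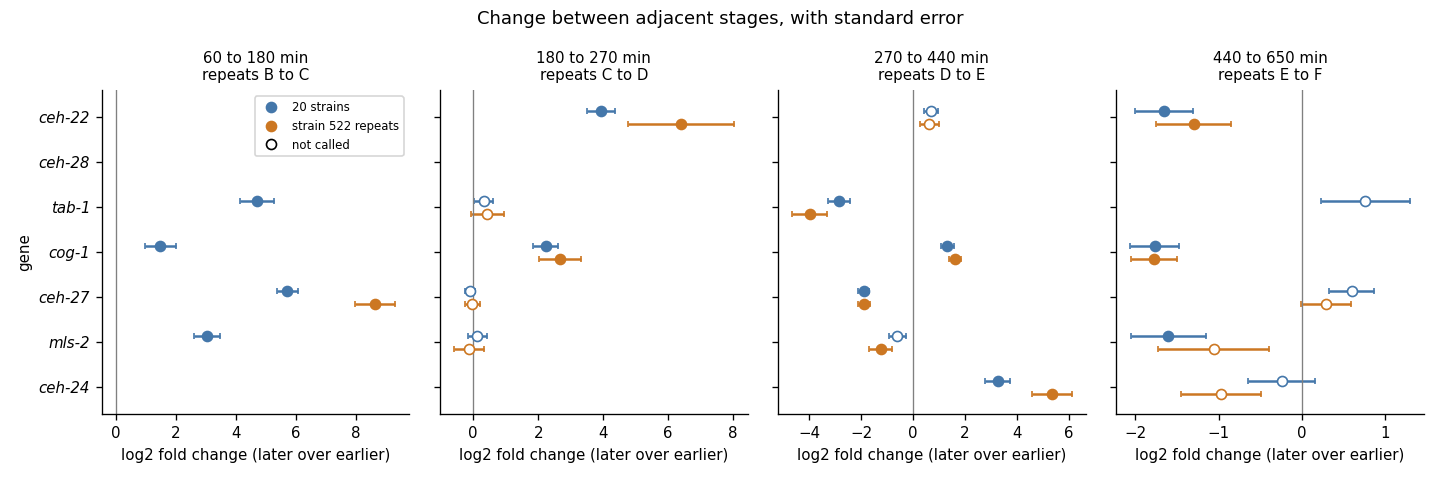
Log2 fold change (later over earlier) with its standard error for each gene tested, in 4 steps of the strains (blue) and the steps set beside them in the repeats (orange); filled points were called at adjusted p under 0.05 and at least 2-fold, open points were not. cog-1 rose by 1.32 and 1.62 between 270 and 440 min and between D and E and fell by 1.76 and 1.78 in the next step, and fitted changes from a group at 0, such as ceh-27 from B to C, depend on the fit and are no measure of size.

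At the peaks the spread between strains was close to the spread that counting alone gives. For ceh-27 at 180 min the SD over 20 strains was 65.8 CPM, against 75.6 CPM from counting alone at these totals, and at 270 min 78.2 against 73.1 CPM. For cog-1 at 440 min the values were 46.6 and 44.1 CPM, for ceh-22 at 440 min 30.9 and 33.3 CPM, for tab-1 at 270 min 28.9 and 32.8 CPM, for ceh-24 at 440 min 21.8 and 22.7 CPM, and for mls-2 at 180 min 34.2 and 31.3 CPM. In a model with stage and strain, 1 of the 6 genes tested differed among strains by edgeR's quasi-likelihood test, mls-2 at an adjusted p of 0.0385, whereas 45% of 12986 genes did. On simulated counts with the stage means of these libraries this test called unchanged genes more often than its adjusted p allows, so these counts are given as values and no difference between strains is read from them. The call of mls-2 was lost with RLE scaling (adjusted p = 0.128), without the shallow libraries (0.0507) and without N2 (0.123). Without N2 cog-1 was called in its place (0.0336, against 0.0739 with N2). ceh-27, the gene with the most counts, stood at an adjusted p of 0.411.

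By the shape of their course over the 7 stages ceh-22 and cog-1 formed a pair and ceh-27, mls-2 and tab-1 a trio, while ceh-24 and ceh-28 joined neither. The Pearson correlation of log2 stage means (CPM with 10 added) between ceh-22 and cog-1 was 0.98 over the 7 stages of the strains and 0.96 over the time points of the repeats. It was 0.90 and 0.95 for ceh-27 with mls-2, 0.94 and 0.90 for ceh-27 with tab-1, and 0.90 and 0.93 for mls-2 with tab-1. ceh-24 gave 0.65 and 0.75 with cog-1, and -0.23 and -0.37 with tab-1. These values share libraries and rest on 7 points, and they describe the courses only.

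Among 6952 genes with a mean of at least 20 CPM, the course most like that of ceh-27 was that of C16A3.6 (r 0.98 in the strains, 0.90 in the repeats), followed by unc-130, a forkhead factor (0.98 and 0.98), Y53G8AM.8 (0.98 and 0.99), hecd-1 (0.97 and 0.94) and ears-1, a glutamyl-tRNA synthetase (0.97 and 0.83). unc-130 had stage means of 0.514, 6.78, 118, 135, 38.8, 27.6 and 20.0 CPM from 0 to 830 min. For ceh-22 the nearest were F37C4.4 (0.99 and 0.90), Y57G11C.31 (0.99 and 0.98), the collagen col-76 (0.98 and 0.96), nsy-4, a claudin-like protein that acts in AWC asymmetry (0.98 and 0.97), and sym-2 (0.98 and 0.89). nsy-4 had stage means of 7.04, 13.3, 15.2, 465, 841, 69.7 and 101 CPM.

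The other NK-like genes in the table moved both earlier and later than these 7. Of 10 listed, 3 were tested between 0 and 60 min and all rose, with 21.4% of 7222 genes rising and 19.8% falling, and their median log2 fold change was 3.81 against 0.19 over all genes tested. They were ceh-51 (5.73 ± 0.46), which acts in early mesoderm, ceh-43 (3.06 ± 0.46), the Distalless relative, and ceh-5 (3.81 ± 0.58), and the largest of their edgeR adjusted p-values was 1.1e-07. Between 60 and 180 min 3 of 5 rose and 1 fell (median 1.22, against -0.04 over all genes), among them ceh-43 again (2.68 ± 0.27) while ceh-51 fell (-3.16 ± 0.36). Between 180 and 270 min 2 of 6 rose, ceh-30 and ceh-2 (median 0.39, against 0.04). Between 270 and 440 min 3 of 6 rose and 2 fell (median 1.21, against 0.14), with ceh-19 (3.31 ± 0.48) and ceh-2 (2.34 ± 0.37) up beside ceh-24 and ceh-43 (-1.75 ± 0.24) down beside ceh-27. Between 440 and 650 min 3 of 6 fell and none rose (median -0.82, against 0.17), led by ceh-5 (-4.38 ± 0.45), and between 650 and 830 min 1 of 5 fell (median -0.47, against -0.10).

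The pharyngeal muscle genes moved at several steps before and after the rise of ceh-22. pha-4, the FoxA factor that specifies the pharynx, rose between 0 and 60 min (1.58 ± 0.46), between 60 and 180 min (3.46 ± 0.26) and again to 270 min (1.04 ± 0.17), and fell to 440 min (-1.19 ± 0.20). In the repeats pha-4 rose from A to B (3.01 ± 0.86) and from B to C (4.98 ± 0.29), but the next steps were not called (0.05, edgeR adjusted p = 0.915, and -0.60, adjusted p = 0.0902). tbx-2, a T-box factor of pharyngeal muscle, rose between 60 and 180 min (2.43 ± 0.28) and from B to C (2.60 ± 0.43), and was called down from D to E (-1.18) but not between 270 and 440 min (-0.50), a difference that was not tested. Of the contractile genes, the pharyngeal myosins myo-1 (1.54 ± 0.53) and myo-2 (1.04 ± 0.46) rose between 0 and 60 min, and the corresponding step of the repeats did not meet the count minimum for them. Of 7 listed genes, all tested, 5 rose and none fell between 440 and 650 min (median 3.49, against 0.17 over all genes), led by myo-2 (5.92 ± 0.29), a target of CEH-22, myo-1 (5.48 ± 0.30) and myo-5 (5.80 ± 0.32), another pharyngeal myosin, with a largest edgeR adjusted p of 1.9e-25. In the same interval ceh-22 itself fell by 1.66 on the log2 scale. Of the same list, tnc-2 (3.40, edgeR adjusted p = 7.0e-13) and tni-4 (2.81, adjusted p = 1.1e-10) had already risen between 270 and 440 min. From D to E these 2 genes rose by 4.45 and 4.58. They rose again between 440 and 650 min (3.49 and 2.23). In the repeats the same step, E to F, also gave 5 rises and no fall among 7, with myo-2 at 6.32 ± 0.37. Counts for the other intervals were 3 rises between 0 and 60 min (median 0.91), 2 between 60 and 180 min (0.04), 1 between 180 and 270 min (-0.03), 2 rises and 1 fall between 270 and 440 min (0.61) and 1 rise between 650 and 830 min (0.27).

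Genes known to act with cog-1 and mls-2 in ASE and AWC neurons did not keep to one course. Of 7 listed, nsy-1, a MAP kinase kinase kinase, and die-1, a zinc finger factor, fell between 270 and 440 min (-2.76 ± 0.23 and -3.15 ± 0.30), as cog-1 rose, and rose between 440 and 650 min (1.96 ± 0.29 and 2.06 ± 0.39), as cog-1 fell. By contrast, fozi-1 rose with cog-1 between 270 and 440 min (2.54, edgeR adjusted p = 3.5e-05) and from D to E (5.13). nsy-1 also rose with cog-1 between 60 and 180 min (1.40). Neither nsy-1 nor die-1 was called between 180 and 270 min (0.28 and 0.12). unc-37, the Groucho corepressor, fell between 440 and 650 min (-2.04 ± 0.24), and ceh-36, an Otx-type homeodomain factor of both neuron types, rose between 60 and 180 min (2.66 ± 0.37). In the next 2 intervals of the strains ceh-36 fell (-1.49 and -1.30). Over the 6 intervals in order, 3, 4, 4, 6, 6 and 5 genes of this list were tested. Of these, 3, 2, 0, 1, 2 and 0 rose and 0, 0, 1, 3, 1 and 2 fell. Their median log2 fold changes were 1.38, 1.13, -0.31, -0.85, 0.26 and 0.11, against 0.19, -0.04, 0.04, 0.14, 0.17 and -0.10 over all genes tested. che-1, which specifies the ASE neurons, had 6 counts in all strains and was not tested in any interval of the strains. Of 6 genes of glia and the M lineage, ptr-10, a glial marker, rose between 270 and 440 min (2.63 ± 0.32) and fell to 650 min (-4.77 ± 0.41), and hlh-17, a bHLH factor of the sheath glia in which MLS-2 acts, rose and fell over the same steps (2.34 ± 0.49 and -1.69 ± 0.49). Other genes of this list went the other way at these steps. vab-3 fell between 270 and 440 min (-1.71, edgeR adjusted p = 0.0046), and sem-2 rose between 440 and 650 min (1.62, edgeR adjusted p = 0.0070). In the repeats nsy-1, die-1 and ptr-10 were called in the same directions from D to E and from E to F, ceh-36 also fell from C to D (-2.35), and hlh-17 did not meet the count minimum at these steps. Over the 6 intervals 2, 3, 4, 6, 5 and 3 genes of this list were tested. Of these, 2, 2, 1, 2, 1 and 0 rose and 0, 1, 0, 1, 2 and 3 fell. Their medians were 3.03, 2.68, 0.90, 0.46, -0.78 and -1.32, against the same medians over all genes tested as above. Between 60 and 180 min, as mls-2 rose, let-381 (3.09) and hlh-1 (2.68) of this list rose and sem-2 fell (-1.69). With RLE scaling, of the calls in the 4 related lists over the strain intervals, those of nsy-1 and myo-2 between 0 and 60 min and of myo-1 between 650 and 830 min were lost, and unc-37 was called up between 60 and 180 min (1.13) and hlh-1, a bHLH muscle factor, down between 270 and 440 min (-1.11).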

How the data were processed

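Counts were read from 2 deposited tables, one of 20 strains at 7 stages and one of the strain 522 repeats. The submitters' processing notes name CASAVA 1.8 and Bowtie2 2.1.0, with no role for either. Which program counted, on what build and annotation and with what use of strand is not given in the sources used here; no coordinates are printed. Values are raw counts per gene deposited by the authors, as whole numbers with no normalization. No molecular identifiers are stated, so counting intervals (exact, 95%) and floors (3 counts) cover counting error only. Rows without a gene name stayed out of totals and tests. In the repeats, 38.8% to 70.2% of reads were listed as not aligned, and 17.8% to 47.7% of the aligned ones as lying in no feature. 7 further columns of per-sample values, copies named for strain 522, were not used.

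For each pair of adjacent stages, the libraries of both were fitted with the quasi-likelihood test of edgeR 4.0.16 (R 4.3.3) on TMM-scaled totals. Genes with a summed count of at least 20 were tested, p-values were adjusted by Benjamini-Hochberg over all of them, and calls needed an adjusted p below 0.05 with a change of 2-fold or more. F tests over stages, time points or strains used the adjusted p alone. All tests are two-sided. On simulated counts the tests between stages gave few false calls and recovered most larger changes but a minority of those at the fold threshold, whereas the F test among strains called too many unchanged genes and is given as a description. DESeq2 1.42.0, RLE scaling, filterByExpr, no filter, blocks and left-out libraries were alternatives. Gene symbols and overlaps came from RefSeq and Ensembl WBcel235 tables, in which 20063 identifiers matched a locus tag. Strain names pair libraries across stages, because they mark the same line: deviations from stage means correlated at a median of 0.0750 to 0.103 within strains and -0.0181 to -0.0065 between them (4131 genes). The 7 genes, the related lists (other NK-like, pharyngeal muscle, ASE and AWC neuron, glia and M lineage, yolk, sperm) and the tests were chosen with earlier results of these data known. The plan was to name from each list up to 3 called genes with the smallest adjusted p in a comparison. This was not kept throughout: some genes under that rule are not named, and other genes and uncalled steps are. Also named were the 5 genes most like ceh-27 and ceh-22 by course.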

Additional observations from a re-analysis of the deposited data

How the results depend on the processing

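No called change of a member changed direction under any alternative run. Changes that were not called were not checked in this way. That of tab-1 between 650 and 830 min changed sign with RLE scaling (log2 fold change 0.04, and -0.15 with RLE). With filterByExpr, which drops low counts, fewer of the 7 genes could be tested, and those called numbered 1 between 60 and 180 min, 0 between 180 and 270 min, 1 between 270 and 440 min and 0 between 440 and 650 min, and 0 from C to D and 3 from D to E in the repeats. By the same filter 1 gene differed among stages and 0 among strains. All genes called then fell to 428, 601, 179, 468, 544 and 238 over the 6 strain intervals, from 2978, 3623, 1650, 4153, 4267 and 2575. In the repeats they fell to 1366 from B to C (2609 in the report's fit) and 610 from C to D (1168, and 767 with DESeq2), and to 2961 (12612), 7387 (11111) and 1627 (5844) for any stage, any time point and any strain. Without a filter 3 members were called from B to C, 4 were called among strains, and ceh-28 was called among time points of the repeats (adjusted p = 0.0065). With RLE scaling or with strain as a replicate block 1 member, ceh-24, was called between 650 and 830 min; the strain block changed no other call. DESeq2 left 1 member called from E to F. Among strains 0 members were called with RLE scaling and without the shallow libraries. The cause of these changes was not tested, other than the smaller number of genes tested with filterByExpr. Leaving out each repeat library in turn gave 3 to 5 members called from D to E, 1 to 2 from E to F and 0 to 1 from F to G.

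The replicate numbers of the repeats do not pair the libraries (same-number correlations at most 0.0353), and a fit with replicate number as a replicate block ended the call of mls-2 from D to E (log2 fold change -1.04, adjusted p = 0.103) and no other. Depth limits the low values: 3 counts over a stage of the strains are worth 1.71 to 1.90 CPM at the stages without a count, and ceh-28 cannot be followed in the strains at this depth. For each gene, the share of strains at its most frequent peak stage was compared with a 95% binomial interval around the count of 20. It stayed inside for 7 of 7 genes with TMM-scaled CPM and without strains that have a shallow library. The intervals are wide and the strains are the same, so smaller shifts, as between 270 and 440 min for ceh-22, would not be seen. For ceh-28 the share rests on 3 strains.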
